A study of Mus musculus with 6 samples.

Results

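The SLC25 family comprises the carriers that move metabolites across the inner mitochondrial membrane. Members were taken as the rows of the deposited expression table whose symbol is Slc25a followed by a number, which gave 47 of 46095 genes. All 6 samples are labelled as 3T3-L1 adipocytes, cells of a mouse fibroblast line put through differentiation into fat cells, at day 8 of that process. They comprised 3 untreated samples and 3 samples given Smilax glabra flavonoids, plant compounds from a medicinal vine, at 0.125 μg/mL. No other agent or genotype is named, and the labels do not say whether the 3 samples of a group were separate cultures, so p-values reflect only how far these samples scatter, and that scatter may be technical. Levels are in FPKM, fragments scaled by gene length and library depth, so that genes can be set side by side.

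The inner mitochondrial membrane is closed to most charged metabolites, and each SLC25 carrier exchanges a small set of them between the cytosol and the matrix. The proteins share a fold of repeated membrane-spanning segments and are encoded in the nucleus, made in the cytosol and inserted through the TIM22 complex. In fat cells the family delivers ADP and phosphate for ATP synthesis, exports citrate as the carbon source of fatty acids, and imports acylcarnitines, amino acids and cofactors. A few relatives carry other names, among them the uncoupling proteins Ucp1, Ucp2 and Ucp3 and the outer membrane proteins Mtch1 and Mtch2.

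Whole fragments worked back from the FPKM steps numbered 21952064 to 26355863 per library. Correlations of log2 values between libraries were 0.9668 to 0.9891 within the untreated group and 0.9866 to 0.9954 within the flavonoid group. Between the groups they were 0.9549 to 0.9809. Untreated replicate 1 correlated less with untreated replicate 3 (0.9668) than with any treated library (0.9714 to 0.9805). Untreated replicates 1 and 3 stood apart in opposite directions: relative to the mean library, log2 values changed by -0.116 and 0.159 for each doubling of gene length, against -0.0303 to 0.0169 in the other 4 libraries. The marker genes went against the label in part. Of 12 listed mature adipocyte genes 7 fell short of a mean of 1 FPKM, among them Adipoq at 0.27, Plin1 at 0.185, Cd36 at 0.00352 and Slc2a4 at 0.00252 FPKM. The other 5 were tested and 0 were called. Their means were 213 FPKM for Lpl, 195 for Fabp4, 11.2 for Pparg, 9.15 for Lipe and 6.5 for Cebpa. The whole list of 12 summed to 394 to 423 FPKM untreated and 357 to 527 FPKM treated. Means of the 7 listed preadipocyte and fibroblast genes ran from 6.66 FPKM for Lum and 17.6 FPKM for Dlk1 to 1175 FPKM for Col3a1. Between them lay Thy1 at 176, Pdgfra at 198, Dcn at 493 and Col1a1 at 779 FPKM. All 7 listed preadipocyte and fibroblast genes had every treated value below every untreated one, as did 17.3% of all tested genes. Of the 7, 3 fell (Thy1, Lum and Dcn), where 5.13% of all tested genes fell. Their summed level was 3182 to 3603 FPKM untreated and 2286 to 2440 FPKM treated. Of 4 muscle genes Myod1 and Ckm were listed at 0 in all 6 libraries, and the list summed to at most 0.144 FPKM. Of 4 macrophage genes Ptprc was listed at 0 in all 6, Cd68 measured 1.2 to 2.73 FPKM and Csf1r 0.633 to 0.887 FPKM, and the list summed to 1.86 to 3.49 FPKM untreated and 1.92 to 2.62 FPKM treated. The part of these markers in the values below was not tested, and in bulk RNA fewer cells of a type and less RNA per cell cannot be told apart.

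The amino acid carriers Slc25a38 and Slc25a44 were higher with flavonoids, and no member was lower at the same threshold. Of the 47 members, 30 had a mean of at least 1 FPKM and were tested with limma on log2(FPKM + 1). At a Benjamini-Hochberg adjusted p under 0.05 over all 11464 tested genes, 2 members rose, 0 fell and 28 did not pass, whereas 4.86% of all tested genes rose and 5.13% fell. At an unadjusted p under 0.05 there were 5 higher and 2 lower members, beside 12.8% and 14.3% of all tested genes, and limma's voom on recovered fragments called 0 lower as well. The median log2 change was 0.09 over the tested members and -0.02 over all tested genes. The 3 treated values lay above the 3 untreated values in 8 members and below them in 4, against 17% and 17.3% of all tested genes (34.3% in either direction). The share of members that passed, 6.67%, lay below the 9.99% of all tested genes. The smallest tested level was that of Slc25a29, with a mean of 1.41 FPKM over the 6 samples, and the next member down, Slc25a27, had 0.890 FPKM and was not tested.

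**Figure D1:**
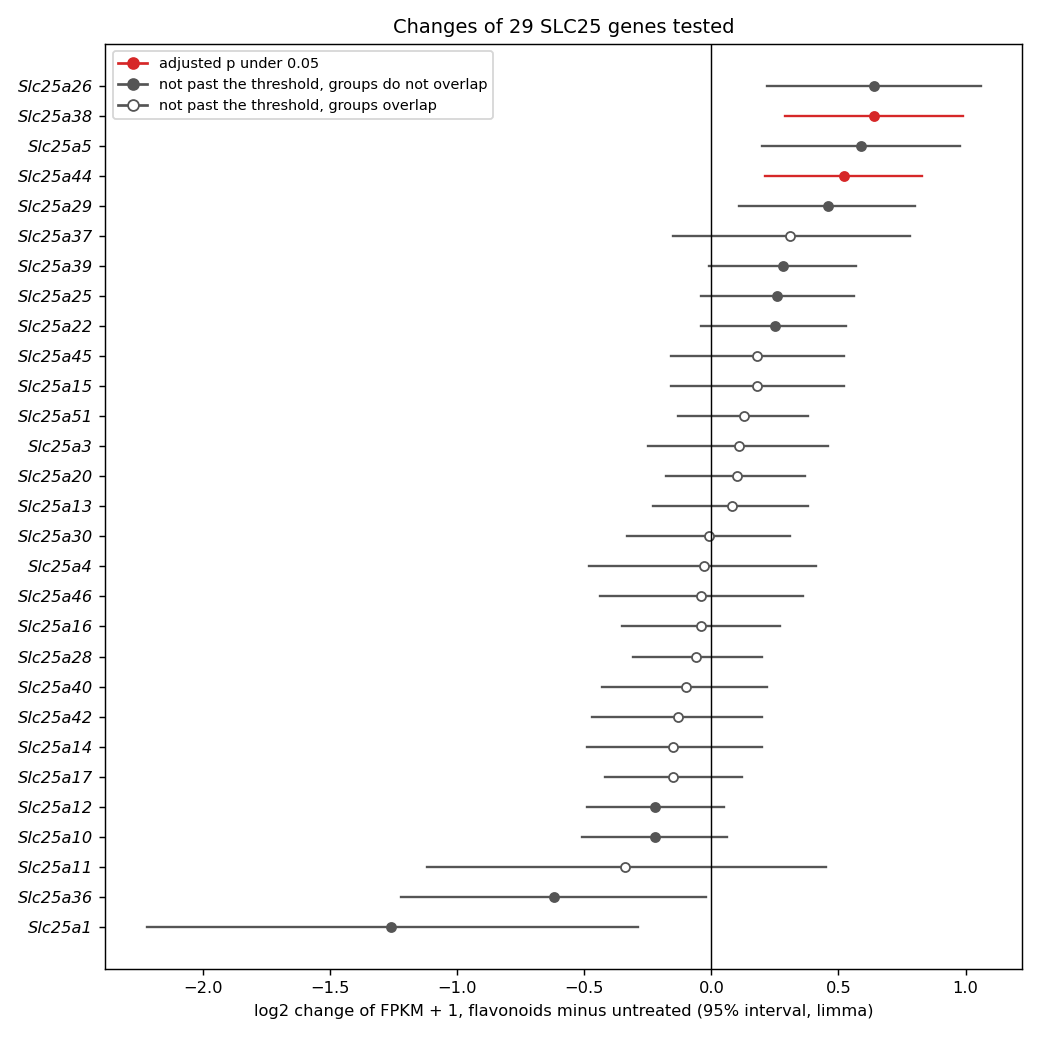
Log2 change of FPKM + 1 (x axis, flavonoids minus untreated) with its 95% interval from limma for 29 of the 30 tested SLC25 genes (y axis). Red points, Slc25a38 and Slc25a44, have an adjusted p under 0.05, and filled grey points are other genes whose groups do not overlap. The interval of Slc25a1, the lowest gene, is the widest of those drawn.

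The family was dominated by a few genes. Slc25a4 alone made up 51.9 to 61.4% of the summed FPKM of the members in a library, and Slc25a4, Slc25a3, Slc25a5 and Slc25a39 together 81.3 to 87.5%. The sum over all members was 1848, 1623 and 1296 FPKM in untreated replicates 1 to 3 and 1668, 1673 and 1555 FPKM in treated replicates 1 to 3. The treated sums therefore lay within the untreated range, and the members took 0.305 to 0.352% of all FPKM. All genes together summed to 524930, 477408 and 424479 FPKM in untreated replicates 1 to 3, falling in the same order. By the length that FPKM implies, Slc25a4 was the shortest tested member, at 1115 bases against a median of 2785. The part of the trend over gene length in the untreated range was not tested. In the order of levels, Slc25a4 stood clear of Slc25a3, and Slc25a3 of Slc25a5, with no shared values over the 6 libraries. Slc25a5 and Slc25a39 overlapped, as did every neighbouring pair below Slc25a22.

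**Figure D2:**
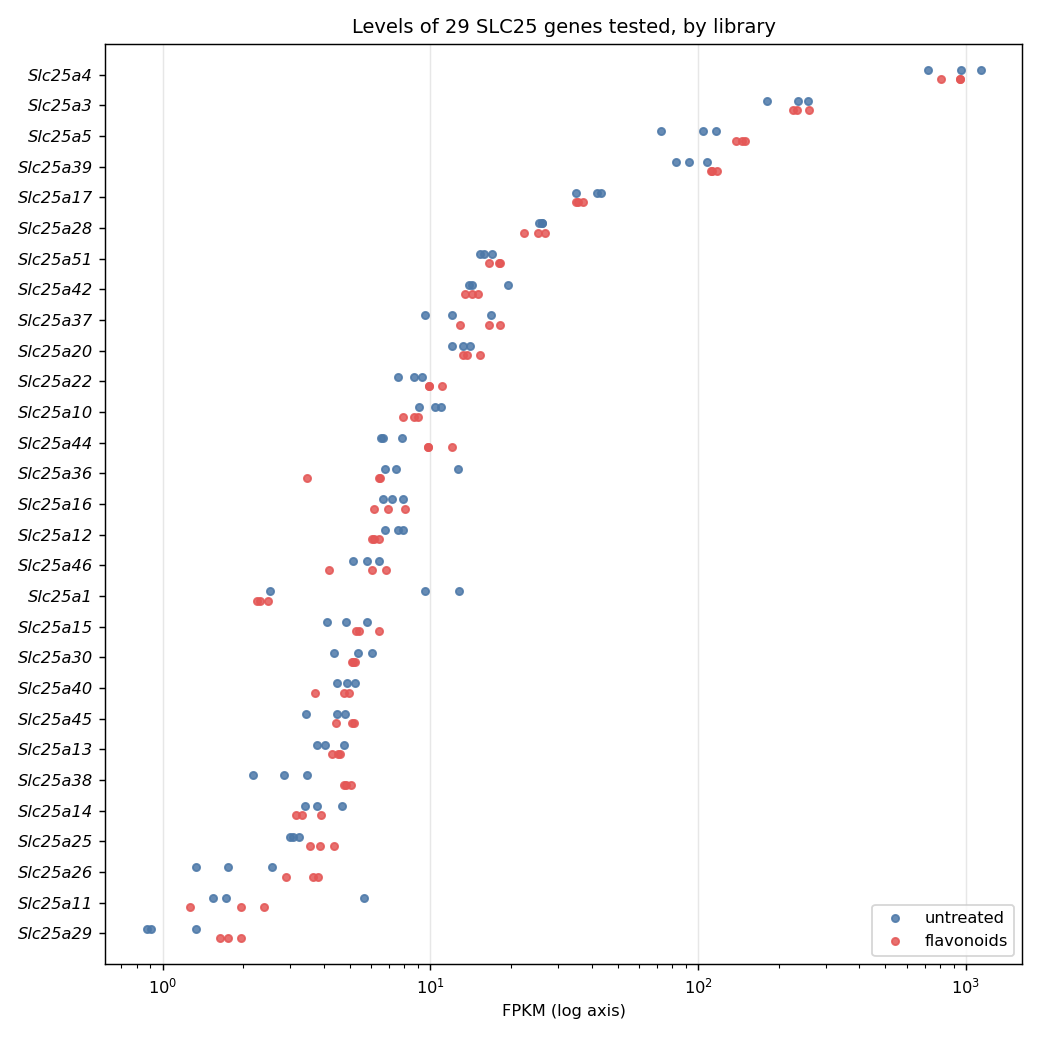
FPKM on a log axis (x) in each of the 6 libraries for 29 of the 30 tested SLC25 genes, ordered by mean level (y). Blue points are the 3 untreated and red points the 3 flavonoid libraries; Slc25a4 lies between 718 and 1135 FPKM and Slc25a29 between 0.876 and 1.97 FPKM.

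Among the carriers of ADP, ATP and phosphate, Slc25a4 (ANT1), the ADP/ATP carrier best known from heart and muscle, was the most abundant. Its gene spans 46206797 to 46211284 of chromosome 8 on GRCm38, the build used throughout. It measured 1135, 959 and 718 FPKM in untreated replicates 1 to 3 and 950, 947 and 808 FPKM in treated ones. The groups overlapped, with a log2 change of -0.03 (SE 0.19, limma adjusted p = 0.931, 95% interval -0.48 to 0.41). Slc25a5 (ANT2), the ADP/ATP carrier of growing cells (chromosome X, 36795651 to 36798807), measured 117, 104 and 72.6 FPKM untreated and 146, 149 and 139 FPKM treated. All treated values were higher, and means were 97.6 ± 22.6 and 145 ± 5.01 FPKM (SD, n = 3 per group). Its log2 change of 0.59 (SE 0.17) did not pass the test, with a limma adjusted p of 0.0659, and it passed in 13 of 25 other processing settings, within 0.00394 to 0.184. With each library's trend over gene length removed the adjusted p was 0.00394, and without untreated replicate 3 it was 0.0405. Slc25a5 has processed copies in the genome whose reads may not be told apart from its own.

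In the untreated group the ratio of the ADP/ATP carriers varied less between libraries than either level did. Slc25a4 exceeded Slc25a5 by 9.74, 9.24 and 9.88 times in untreated replicates 1 to 3 and by 6.51, 6.36 and 5.81 times in treated ones. The ratios did not overlap, with means of 9.62 ± 0.338 and 6.23 ± 0.370 (SD, n = 3 per group). An exact two-sided permutation test gave p = 0.1, the smallest that 3 against 3 samples allow, and adjusted p = 0.4 over the 6 ratios compared. The other 5 ratios, set with the values known, overlapped between groups. The aspartate/glutamate carriers Slc25a12 and Slc25a13, for example, had ratios of 1.42, 1.95 and 2.01 untreated and 1.41, 1.44 and 1.33 treated.

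**Figure D3:**
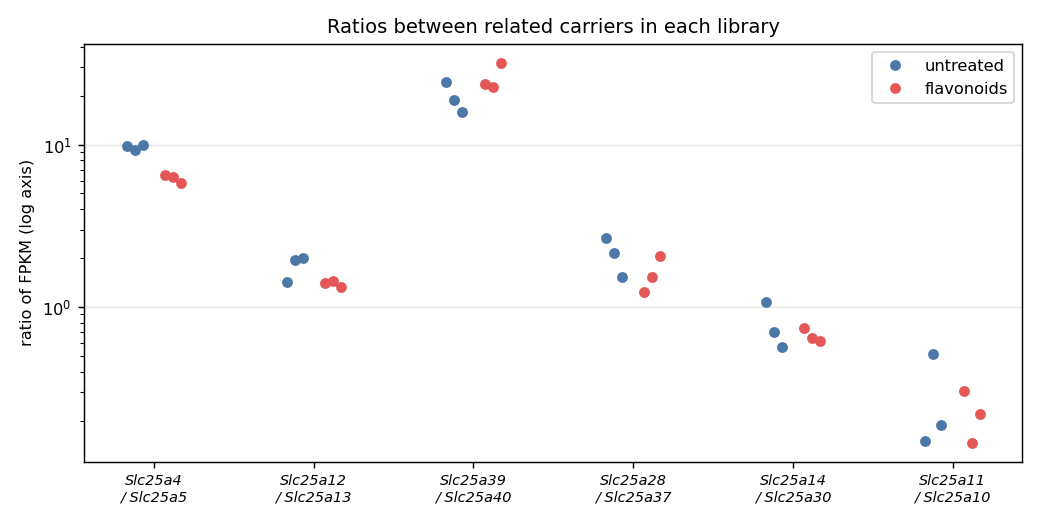
Ratio of FPKM between related SLC25 genes (y, log axis) in each library for 6 pairs (x); blue points are untreated and red points flavonoid libraries. The ratio of Slc25a4 to Slc25a5 is 9.24 to 9.88 in the untreated and 5.81 to 6.51 in the flavonoid libraries, and the other pairs overlap.

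Slc25a3 carries the phosphate that ATP synthase consumes, and also brings copper to cytochrome oxidase. It measured 257, 235 and 180 FPKM untreated and 225, 233 and 260 FPKM treated (chromosome 10, 91116574 to 91124059; limma adjusted p = 0.702, log2 change 0.11, SE 0.16). The groups overlapped, and untreated replicate 3 was the lowest library, as it was for Slc25a4 and Slc25a5. Its gene has mutually exclusive exons for muscle and other tissues, which values per gene do not separate. Slc25a25, a calcium-regulated ATP-Mg/phosphate carrier, measured 2.98, 3.24 and 3.08 FPKM untreated and 3.87, 3.54 and 4.37 FPKM treated, without overlap (limma adjusted p = 0.243). Its relatives Slc25a24 and Slc25a23 had means of 0.882 and 0.768 FPKM and were not tested. The calcium-independent Slc25a41 was at most 0.0168 FPKM, and the testis carrier Slc25a31 was listed at 0 in all libraries.

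The sequences upstream of the 3 abundant carriers of this group and of the called carrier Slc25a38 are shown because their motifs can be compared with those of all genes. Each is the 250 bases before the RefSeq start of the gene, on GRCm38.p6, 5′ to 3′ on the gene's strand. Capitals mark matches, on either strand and with overlaps allowed, to any of 6 motifs. These are the palindrome of nuclear respiratory factor 1 and the sequence TGATGNAAN of ATF4 and CHOP. Estrogen-related receptors bind TNAAGGTCA, while the target of GABP and other ETS factors was taken as CCGGAAG. The GC box, the element of Sp1 and its relatives, was searched as GGGCGG. The TATA box of the basal machinery was searched with the letters TATAAA. The last 3 of these motifs were chosen with the sequences in view.
Slc25a4 (chr8:46211063-46211312, minus strand): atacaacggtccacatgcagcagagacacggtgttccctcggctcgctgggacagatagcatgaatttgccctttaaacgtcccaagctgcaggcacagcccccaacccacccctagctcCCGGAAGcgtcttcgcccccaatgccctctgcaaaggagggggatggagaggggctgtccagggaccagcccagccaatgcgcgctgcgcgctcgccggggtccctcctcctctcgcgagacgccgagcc
Slc25a5 (chrX:36795347-36795596, plus strand): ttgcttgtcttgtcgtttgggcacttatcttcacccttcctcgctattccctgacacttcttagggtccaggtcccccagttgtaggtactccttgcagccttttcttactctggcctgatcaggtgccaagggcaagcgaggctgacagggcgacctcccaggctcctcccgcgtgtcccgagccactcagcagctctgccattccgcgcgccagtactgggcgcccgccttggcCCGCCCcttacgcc
Slc25a3 (chr10:91123968-91124217, minus strand): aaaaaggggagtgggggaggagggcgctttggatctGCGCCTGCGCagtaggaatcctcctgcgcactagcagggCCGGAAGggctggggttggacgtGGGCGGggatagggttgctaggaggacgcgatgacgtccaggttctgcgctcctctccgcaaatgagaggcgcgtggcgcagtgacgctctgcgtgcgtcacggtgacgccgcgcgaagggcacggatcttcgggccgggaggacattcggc
Slc25a38 (chr9:120110132-120110381, plus strand): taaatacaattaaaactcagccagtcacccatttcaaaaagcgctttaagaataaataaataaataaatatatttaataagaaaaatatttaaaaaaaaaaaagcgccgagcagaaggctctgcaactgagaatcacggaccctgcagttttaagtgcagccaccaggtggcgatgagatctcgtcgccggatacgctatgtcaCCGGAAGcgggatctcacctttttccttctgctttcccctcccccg

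An ETS match began at base -130 relative to the start in Slc25a4, -175 in Slc25a3 and -46 in Slc25a38. Slc25a3 also held a nuclear respiratory factor 1 match at -214. A GC box began at -152 in Slc25a3 and at -14 in Slc25a5. Past the start, outside the sequences shown, a GC box began at base 29 in Slc25a4 and 43 in Slc25a38. The gene spans given here, from GENCODE, begin before the RefSeq start in Slc25a4, Slc25a3 and Slc25a38. Part of the sequence shown for each of them therefore lies inside the annotated gene. In Slc25a4 this is most of the sequence, with the ETS match. RefSeq gave promoters for 36 members, 24 of them tested, and the first entry was used for the 7 with several. Over windows of 300 bases, reaching 50 bases past the start, a GC box was in 22 of the 24 tested members (91.7%), in 68.1% of 7985 tested genes with a promoter and in 35.9% of all 27025 promoters. The ETS sequence was in 6 of 24 (25.0%), against 20.3% of tested genes and 9.12% of all promoters. Nuclear respiratory factor 1 sequences were in 1 of 24 (4.17%), against 11.9% of tested genes and 4.78% of all. The ATF4 and CHOP element, the estrogen-related receptor element and the TATA box were in 0 of 24, beside 1.92%, 0.651% and 6.37% of tested genes and 4.04%, 1.26% and 14.2% of all promoters. A match describes letters and not a site in use, and Slc25a44 had no entry.

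Of the 7 tested carriers of amino acids, 2 rose and 0 fell, and 6 had a positive estimate, with a median log2 change of 0.25. Over all tested genes 4.86% rose and 5.13% fell, 5432 of 11464 had a positive estimate, and the median was -0.02. Positive estimates also prevailed in the neighbouring lists described below. They made up 11 of 12 tested genes of the import route for carriers and 17 of 20 respiratory chain and ATP synthase genes. The same held for 10 of 11 iron, proline and one-carbon enzymes, 9 of 11 shuttle enzymes and 13 of 19 other mitochondrial carriers and channels. In that order, the median log2 changes of these lists were 0.25, 0.16, 0.21, 0.15 and 0.03. Slc25a38, which brings glycine into the matrix for the first step of heme synthesis, lies on chromosome 9 at 120110374 to 120124504. It measured 3.45, 2.83 and 2.17 FPKM in untreated replicates 1 to 3 and 5.07, 4.86 and 4.76 FPKM in treated ones. Every treated library was above every untreated one, on 131 to 182 and 282 to 308 fragments. Means of 2.82 ± 0.639 and 4.90 ± 0.156 FPKM (SD, n = 3 each) differ 1.74-fold, and the log2 change of 0.64 had an SE of 0.15 and a limma adjusted p of 0.0355. The call ended in 7 of 24 other settings, within adjusted p-values of 0.00699 to 0.143. They included the fit of every gene above 0 (0.103), that with the replicate block (0.0768), and those without untreated replicate 2 (0.143) or 3 (0.0527) or without flavonoids replicate 1 (0.137), 2 (0.111) or 3 (0.0855).

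Slc25a44 carries branched-chain amino acids into mitochondria, a role described in brown fat. The gene lies on chromosome 3 at 88410498 to 88425139. It measured 6.57, 6.66 and 7.83 FPKM untreated and 9.79, 9.76 and 12 FPKM treated, again without overlap. Means of 7.02 ± 0.705 and 10.5 ± 1.27 FPKM (SD, n = 3 each) differ 1.5-fold, and the log2 change of 0.52 had an SE of 0.14 and a limma adjusted p of 0.0447. Its call ended in 10 of 25 other settings, within 0.00933 to 0.200, among them the TPM scale (0.128), median-ratio scaling (0.0503), the fit of every gene above 0 (0.0877) and the replicate block (0.0715). It also ended without untreated replicate 1 (0.0599) or 2 (0.200) and without flavonoids replicate 1 (0.123), 2 (0.111) or 3 (0.107). The last of the 10 was the fit with the length trend removed and without untreated replicate 2 (0.0541). The direction of both carriers was upward in every setting run.

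**Figure D4:**
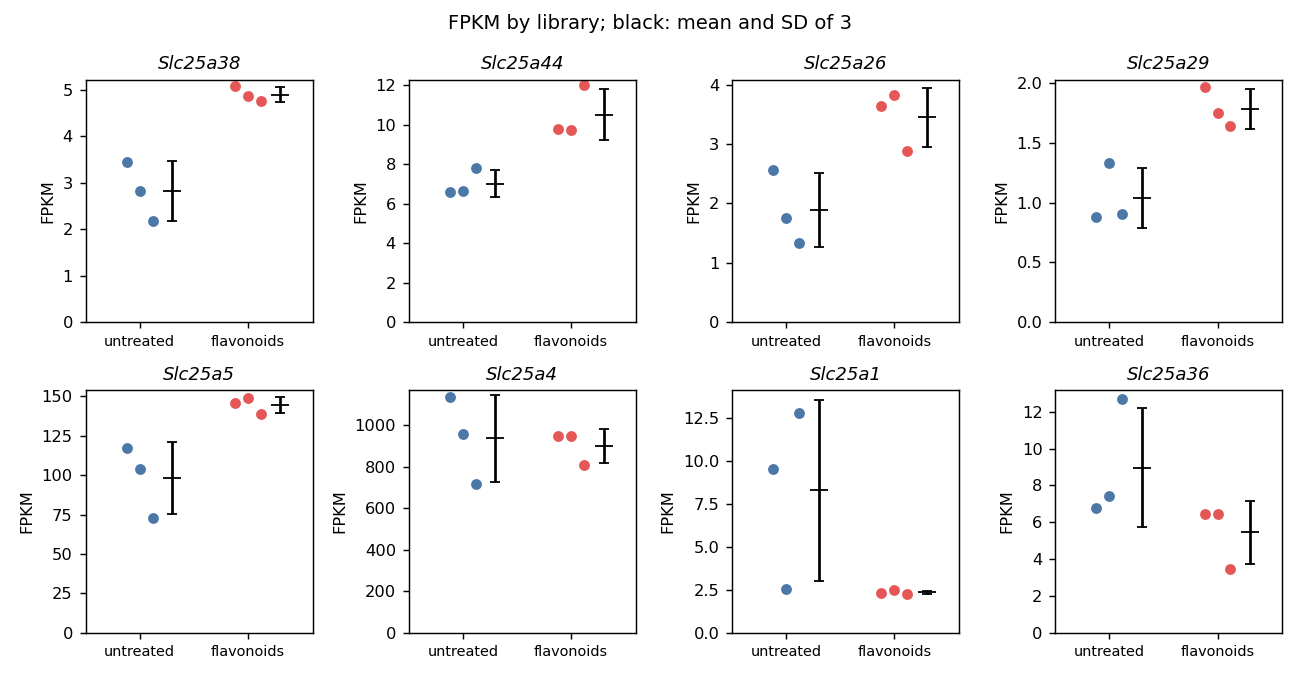
FPKM of 8 SLC25 genes (y, linear from 0) in each untreated (blue) and flavonoid (red) library, with the mean and SD of the 3 in black. Slc25a38, Slc25a44, Slc25a26, Slc25a29 and Slc25a5 have all treated values above all untreated ones, Slc25a4 overlaps, and Slc25a1 and Slc25a36 have all treated values below.

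The remaining amino acid carriers did not pass the test. Slc25a29, a carrier of basic amino acids, measured 0.876, 1.33 and 0.907 FPKM untreated and 1.97, 1.75 and 1.64 FPKM treated, without overlap (limma adjusted p = 0.0934). Slc25a22, the glutamate carrier, was also without overlap, at 8.53 ± 0.892 and 10.3 ± 0.688 FPKM (SD, n = 3 per group; limma adjusted p = 0.253). Slc25a12, an aspartate/glutamate carrier of the malate-aspartate shuttle, had all treated values below the untreated ones, at 7.42 ± 0.562 and 6.22 ± 0.172 FPKM (limma adjusted p = 0.283). These gaps were within what the test allows for the spread of 3 samples. Slc25a13, the second carrier of that shuttle, and the ornithine carrier Slc25a15 overlapped between groups, with adjusted p-values of 0.751 and 0.477. The second glutamate carrier, Slc25a18, reached 0.0163 FPKM in 1 library and was otherwise listed at 0. The intronless ornithine carrier Slc25a2 was at most 0.206 FPKM.

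Carriers of di- and tricarboxylic acids had negative estimates in all 3 tested members, as did 6032 of all 11464 tested genes, and none of the 3 passed. Slc25a1 exports the citrate from which cytosolic acetyl-CoA is made for fatty acid synthesis (chromosome 16, 17925223 to 17928219). It measured 9.52, 2.52 and 12.8 FPKM in untreated replicates 1 to 3 and 2.31, 2.47 and 2.26 FPKM in treated ones. The treated libraries lay close together just under untreated replicate 2, while untreated replicates 1 and 3 were several times higher. The fragments behind these values were 353, 99 and 543 untreated and 97, 110 and 94 treated. Its log2 change of -1.26 (SE 0.42) had a limma adjusted p of 0.0981. Without untreated replicate 2 the change was -1.85 and the adjusted p 0.0201, and over all other settings the change ranged from -1.87 to -0.76. What set the untreated libraries apart was not tested.

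Slc25a11, the oxoglutarate/malate carrier of the malate-aspartate shuttle, also had 1 library apart. It measured 1.55, 5.63 and 1.72 FPKM untreated and 2.39, 1.27 and 1.96 FPKM treated (limma adjusted p = 0.577). Untreated replicate 2 was thus the high library, the opposite of Slc25a1, and without it the log2 change turned from -0.34 to 0.11. Rnf167, whose exons share 189 bases with it on the other strand, was likewise highest there, at 1.17 FPKM against 0.253 to 0.523 FPKM in the other 5 libraries. Whether reads of the overlapping pair account for this was not tested. Slc25a10, which exchanges dicarboxylates for phosphate, measured 10.4, 11 and 9.06 FPKM untreated and 7.88, 8.70 and 8.99 FPKM treated, barely apart (limma adjusted p = 0.294). Slc25a21, a carrier of oxodicarboxylates, was listed at 0 in all libraries.

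Among 7 tested carriers of acylcarnitines and coenzymes 0 passed the test. Slc25a26, which imports the methyl donor S-adenosylmethionine, came nearest (chromosome 6, 94500331 to 94604672). It measured 2.56, 1.76 and 1.33 FPKM untreated and 3.65, 3.82 and 2.88 FPKM treated, without overlap. The log2 change was 0.64 (SE 0.19, limma adjusted p = 0.0632), and 6 of 24 other settings called it. Lrig1 on the other strand shares 144 exonic bases with it and was higher in treated libraries too, at 19.2 to 21.6 against 13.4 to 15.4 FPKM. The part of shared reads in the change of Slc25a26 was not tested.

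The other coenzyme carriers described here overlapped between groups. Slc25a17, a peroxisomal member that carries coenzyme A and related cofactors, measured 42.0, 43.3 and 35.0 FPKM untreated and 35.7, 37.2 and 34.9 FPKM treated (log2 change -0.15, SE 0.12, limma adjusted p = 0.462). Slc25a51, the NAD carrier, measured 17.0, 15.3 and 15.8 FPKM untreated and 18.2, 16.6 and 18.0 FPKM treated (log2 change 0.13, SE 0.11, limma adjusted p = 0.506). Neither moved beyond the spread of its samples. Slc25a42, a coenzyme A carrier, measured 14.0, 14.3 and 19.5 FPKM untreated and 13.5, 14.3 and 15.1 FPKM treated (log2 change -0.13, SE 0.15, limma adjusted p = 0.605). Slc25a20, through which acylcarnitines enter for fatty acid oxidation, measured 14.1, 13.2 and 12 FPKM untreated and 13.7, 13.2 and 15.3 FPKM treated (log2 change 0.10, SE 0.12, limma adjusted p = 0.647). Its 95% interval on the log2 scale was -0.18 to 0.37, which reflects only the scatter of these samples. Slc25a16, linked to coenzyme A, had a limma adjusted p of 0.884. Slc25a32, tied to folate and flavin supply, was low throughout, at 0.0633 to 0.188 FPKM.

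Of 4 tested iron and glutathione carriers 0 passed the test in limma, with 0 in either direction at an unadjusted p under 0.05. Slc25a39, a glutathione carrier, measured 108, 92.6 and 82.5 FPKM untreated and 113, 112 and 118 FPKM treated (chromosome 11, 102402985 to 102407946). The treated libraries were all higher by a small margin (log2 change 0.28, SE 0.13, limma adjusted p = 0.200). Its paralog Slc25a40 was at 4.86 ± 0.383 and 4.48 ± 0.672 FPKM (SD, n = 3 per group; limma adjusted p = 0.685). The mitoferrins bring iron into the matrix for heme and iron-sulfur clusters. Mitoferrin 2, Slc25a28, measured 25.4, 26.1 and 26.1 FPKM untreated and 22.4, 25.3 and 26.8 FPKM treated (log2 change -0.06, SE 0.11, limma adjusted p = 0.781). Mitoferrin 1, Slc25a37, measured 9.52, 12 and 16.9 FPKM untreated and 18.2, 16.6 and 12.9 FPKM treated (log2 change 0.31, SE 0.21, limma adjusted p = 0.369). Both overlapped between groups. The log2 change of Slc25a37 was 0.13 without untreated replicate 1 and 0.52 without untreated replicate 3. It was called in 2 other settings, both with the length trend removed, without untreated replicate 3 (limma adjusted p = 0.0467) or flavonoids replicate 3 (0.0479).

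The pyrimidine nucleotide carriers were uneven. Slc25a36 measured 6.79, 7.42 and 12.7 FPKM untreated and 6.47, 6.44 and 3.47 FPKM treated (chromosome 9, 97074961 to 97111157). The groups did not overlap, and the log2 change was -0.62 (SE 0.26, limma adjusted p = 0.174). It was -0.36 without untreated replicate 3 and -0.37 without flavonoids replicate 3. Slc25a33 had a mean of 0.501 FPKM and was not tested. It measured 1.94 FPKM in flavonoids replicate 1, on 91 fragments, and 0.1 to 0.365 FPKM in the other 5 libraries, on 5 to 17 fragments. Of the carriers that resemble uncoupling proteins, Slc25a14 and Slc25a30 overlapped between groups, with adjusted p-values of 0.577 and 0.972. Slc25a27, which is best known from brain, was highest in untreated replicate 3, at 2.06 FPKM against 0.347 to 1.04 FPKM elsewhere. Slc25a46, an outer membrane member tied to mitochondrial shape, had an adjusted p of 0.916.

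Among the members of less well defined function, Slc25a45 alone was tested, at 4.24 ± 0.711 and 4.91 ± 0.407 FPKM (SD, n = 3 per group; limma adjusted p = 0.478). Slc25a53, Slc25a35 and Slc25a47 were between 0.156 and 0.471 FPKM in all libraries. Slc25a35 shares 31.3% of its exonic bases with Rangrf on the other strand. Of tested members, Slc25a10, Slc25a25, Slc25a37, Slc25a46 and Slc25a51 also share 1.5 to 7.1% of their exonic bases with another annotated gene, which leaves their values less certain. Slc25a34 was above 0 in 1 library, at 0.0147 FPKM. Slc25a43, Slc25a48 and Slc25a54 were listed at 0 in all 6, as were Slc25a21 and Slc25a31, which makes 5 such members. Slc25a43 lies 18448 bases from Slc25a5, the third most abundant member. Other neighbours on a chromosome also differed in level: Slc25a29 at a mean of 1.41 FPKM lies 162 bases from Slc25a47, and Slc25a24 lies 6461 bases from Slc25a54.

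Of the relatives under other symbols, Mtch2, an outer membrane insertase, was 1.5-fold higher, at 76.8 ± 15.9 and 115 ± 6.36 FPKM (SD, n = 3 each; limma adjusted p = 0.0486, SE 0.16 on a log2 change of 0.60), a call that ended in 9 of 25 other settings. Mtch1 and Ucp2 were abundant and did not pass, at 223 ± 36.2 and 239 ± 11.8 FPKM and at 159 ± 9.11 and 163 ± 22.0 FPKM. Ucp1, the uncoupling protein of brown fat, was listed at 0 in all libraries, and Ucp3 had a mean under 1 FPKM. Of 5 listed brown or beige fat genes 3 were at 0 in all libraries, Ucp1, Prdm16 and Dio2, and Cidea was at most 0.11 FPKM. Only Ppargc1a was tested and did not pass, at 0.7 ± 0.337 and 1.65 ± 0.482 FPKM (limma adjusted p = 0.084). Its treated values all lay above the untreated ones, as in 17% of all tested genes.

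Enzymes and carriers that work beside the SLC25 members were listed by function with earlier results of these data known. In the list of iron, proline and one-carbon enzymes, 4 of 11 tested genes rose and 0 fell, beside 4.86% and 5.13% of all tested genes. Alas1, which uses the glycine that Slc25a38 imports, rose, with means of 8.62 ± 0.863 and 13.0 ± 0.977 FPKM (SD, n = 3 each; limma adjusted p = 0.0304), a call that ended in 6 of 25 other settings. Bcat2, the mitochondrial transaminase of the branched-chain amino acids that Slc25a44 carries, rose from 17.7 ± 2.22 to 29.4 ± 2.26 FPKM (limma adjusted p = 0.0134; ended in 5 of 25). The one-carbon enzymes Shmt2 and Mthfd2 rose by 1.03 and 0.98 on the log2 scale and kept their calls in all 25 settings. Among malate-aspartate and citrate shuttle enzymes 1 of 11 rose, the cytosolic transaminase Got1 (log2 change 0.95, limma adjusted p = 0.00353). Mdh1, Mdh2, Cs and Acly did not pass.

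Among 19 other tested carriers and channels of mitochondrial membranes 3 rose and 0 fell, beside 4.86% and 5.13% of all tested genes: Letm1, an inner membrane ion exchanger, and Abcb6 and Abcb10, ABC transporters linked to heme synthesis. Their log2 changes were 0.52, 0.59 and 0.46, and their calls ended in 6 of 25, 7 of 24 and 11 of 24 other settings. The porins Vdac1, Vdac2 and Vdac3 and the pyruvate carrier subunits Mpc1 and Mpc2 did not pass. Of 12 tested genes of the import route for carriers 1 rose, against the same 4.86%: Timm10, a small chaperone that escorts them across the intermembrane space, measured 16.7 ± 5.49 and 38.1 ± 2.49 FPKM (SD, n = 3 each; limma adjusted p = 0.0115 for a log2 change of 1.19). That call ended in 3 of 25 other settings. Of 20 respiratory chain, ATP synthase and matrix genes taken as a gauge of mitochondrial content 0 passed in limma, beside 9.99% of all tested genes. At an unadjusted p under 0.05 in limma 2 were higher and 0 lower, beside 12.8% and 14.3% of all tested genes. Estimates were positive in 17 of the 20, against 5432 of all 11464. The median log2 change was 0.16, against -0.02 over all tested genes. The 3 most abundant genes of this list, Cox4i1, Atp5b and Atp5o, had mean levels of 1313, 451 and 393 FPKM untreated and 1451, 522 and 405 FPKM treated.

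**Figure D5:**
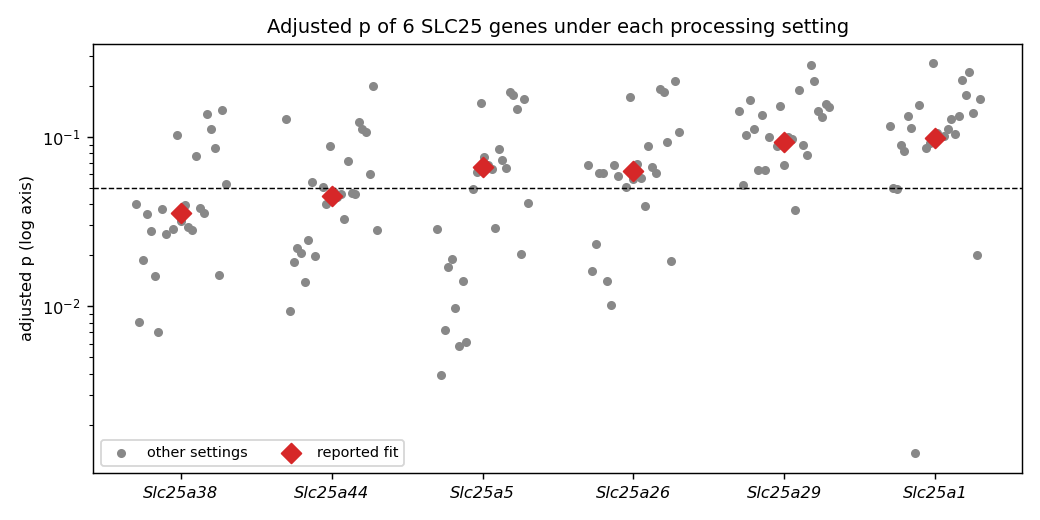
Adjusted p (y, log axis) of 6 SLC25 genes (x) in the reported limma fit (red diamonds) and in each other processing setting (grey points, spread sideways for view); the dashed line is 0.05. Slc25a38 and Slc25a44 lie below it in the reported fit with settings on both sides, and Slc25a5 at 0.0659 has 13 of 25 other settings below it.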

How the data were processed

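RNA of 6 samples was profiled, 3 untreated and 3 treated with flavonoids. Per the labels' protocols, RNA was extracted with TRIzol and libraries were made with a TruSeq kit. The submitters' processing notes name FastQC, HISAT2 and mm10. Which tool counted fragments, with which annotation and strand setting, is not given in the sources used here, so reads of copies and overlapping genes may be shared. The authors deposited 1 table of FPKM values for 46095 genes, and 0 columns were left unused. Members and lists were chosen with earlier results of these data known. Of the tested members 1 enters the counts and is not reported here by name. The others are accounted for, and full statistics are given for those called and the 10 tested members of highest mean.

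The two-sided test was limma's (version 3.58.1, R 4.3.3), applied with an intensity trend to log2(FPKM + 1) of 11464 genes whose mean reached 1 FPKM. This scale understates changes of low genes. An exact permutation test (scipy 1.17.1) was used for ratios. Whole fragments were solved from the FPKM steps for 22235 genes above 0, within 0.005 fragments. In a check on simulated fragments 92.0% of 2847 genes were recovered exactly, so fragment numbers of single genes can be wrong. On data simulated for this comparison, unchanged genes made up more of the calls than the threshold of 0.05 allows and small changes were mostly missed, which bears on calls just under that threshold. Other settings were the replicate block, pseudocounts of 0.1 and 5, no filter, a minimum of 5 FPKM, TPM, median-ratio and quantile scaling, other variance estimates, each library left out, removal of each library's trend over gene length (loess, span 0.5) and voom. The trend removal combined with the block or a left-out library was added after seeing the data. Positions are from GENCODE M21 on GRCm38, the assembly mm10 denotes, and promoters from RefSeq on GRCm38.p6. Protein sequences were not analysed here.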

Additional observations from a re-analysis of the deposited data

How the results depend on the processing

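Higher and lower calls over all genes numbered 557 and 588 as reported, 220 and 237 with the replicate block, 317 and 324 without a filter, 1356 and 1133 with the length trend removed and 1113 and 952 with it removed and the block. Leaving out 1 library gave 65 to 876 higher and 81 to 833 lower genes. With the length trend removed and untreated replicate 1, 2 or 3 left out there were 1213, 675 or 1002 higher and 983, 554 or 934 lower genes, and without flavonoids replicate 1, 2 or 3 there were 850, 873 or 1263 higher and 764, 906 or 1194 lower genes. Higher SLC25 members numbered 0 with the block, 0 without a filter, 1 at a minimum of 5 FPKM, 5 with quantile normalization, 4 with the length trend removed and 4 with it and the block. Lower members numbered 1, Slc25a1, with the trend removed and the block. Leaving out 1 library gave 0 to 3 higher and 0 to 1 lower members, and with the length trend removed 2 to 5 higher and 0 to 1 lower. The cause of these shifts was not tested. Adding Ucp1, Ucp2, Ucp3, Mtch1 and Mtch2 gave 3 higher and 0 lower.

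The block is not a paired analysis, since the samples share only a number: deviations of same-numbered libraries correlated at -0.143, -0.117 and -0.203, and no library correlated best with its own number.

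Of 30 tested members 20 kept their direction in every setting, and 22 were called in no setting. The other 10 turned somewhere. Slc25a4 turned to 0.12 without untreated replicate 1 and 0.04 without flavonoids replicate 3. Slc25a3 turned to -0.04 and Slc25a42 to 0.01 without untreated replicate 3 (Slc25a42 to 0.02 with the trend removed as well), Slc25a28 to 0.01 without flavonoids replicate 1, and Slc25a40 to 0.0021 without flavonoids replicate 3 (0.01 with the trend removed). Without untreated replicate 2 Slc25a11 turned to 0.11, and to 0.10 with the trend removed. Slc25a12 turned to 0.03 with the trend removed and without untreated replicate 1. With quantile normalization Slc25a16, Slc25a46 and Slc25a30 were at 0.04, 0.06 and 0.08, and with the trend removed Slc25a46 and Slc25a30 were each at 0.02, also with the block. With libraries left out the values that turned ran from 0.01 to 0.06 for Slc25a16, from 0.02 to 0.17 for Slc25a46 and from 0.01 to 0.08 for Slc25a30. Leaving out 1 library without trend removal gave ranges of -0.21 to 0.12 for Slc25a4, -0.04 to 0.21 for Slc25a3, -0.11 to 0.01 for Slc25a28, -0.21 to 0.01 for Slc25a42, -0.13 to 0.04 for Slc25a16, -0.16 to 0.14 for Slc25a46, -0.11 to 0.08 for Slc25a30, -0.17 to 0.0021 for Slc25a40 and -0.58 to 0.11 for Slc25a11. At depths of 21952064 fragments and more, members with under 20 fragments in most libraries, such as Slc25a33, cannot be compared.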
